A study of Mus musculus with 8 samples.

Results

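Tag clusters of capped nuclear RNA were described at 6 genes, Nap1l1, Nap1l4, Set, Npm1, Ncl and Nasp, which code for histone chaperones and for abundant nucleolar proteins. A cluster was taken for a gene when it lay on the strand of the gene and its dominant TSS, the base with the strongest signal in the cluster, fell between 500 bp upstream of the gene start and the gene end. By this rule the 6 genes held 94 of the 32857 clusters of E14, 93 of 33005 in DKO A1 and 94 of 32870 in DKO C7. Capped 5′ ends had been mapped by CAGE-seq (cap analysis of gene expression) of nuclear RNA from mouse embryonic stem cells of the E14 line, grown on gelatine in medium with serum and LIF. The E14 group was wild type (3 libraries), and the other groups were clone A1 (2 libraries) and clone C7 (3 libraries) of E14 cells with a double knockout (DKO) of Pwwp2a and Pwwp2b, whose proteins bind H3K36me3 and carry a histone deacetylase complex. Each knockout line is 1 clone, and both clones were set against the same E14 cells. The cluster file used here holds 1 merged set of positions per line, without expression values, so the values below have no replicate error and no test between lines was possible.

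Histone chaperones escort histones outside the nucleosome and hand them to DNA during replication, transcription and repair. Nap1l1 and Nap1l4 belong to the nucleosome assembly protein family and bind H2A-H2B dimers, and Set is a related protein that also inhibits the phosphatase PP2A and masks histone tails from acetylation. Npm1 (nucleophosmin) and Ncl (nucleolin) are among the most abundant proteins of the nucleolus, where ribosomal RNA is made and packed into ribosomal subunits, and both bind histones as well as RNA. Nasp keeps a reserve of soluble H3-H4 and carries linker histone H1. Most of these proteins contain long acidic stretches. Their genes are strongly transcribed in dividing cells, and the bodies of such genes carry H3K36me3.

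The cells were first checked against their label. All 8 embryonic stem cell markers examined, Pou5f1, Nanog and Sox2 among them, had a promoter cluster in each line. Promoter clusters were also found at 2 of 5 trophectoderm, 2 of 5 primitive endoderm, 3 of 5 fibroblast feeder and 2 of 4 neural markers, with the same number in the 3 lines. Pwwp2a had 1 promoter cluster and 1 intronic cluster in E14, A1 and C7 alike, and Pwwp2b had no cluster in any line, so presence of clusters at the targeted genes does not check the knockout. The depth of the libraries is not part of the deposited positions.

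Clusters were sorted by their dominant TSS. Those within 500 bp of any annotated transcript start on the same strand were counted as promoter clusters, and the others as exonic, intronic or intergenic in that order. In E14 the 94 clusters of the 6 genes comprised 39 promoter, 49 exonic and 6 intronic clusters. Nasp had the most exonic clusters (18), followed by Ncl (10), Set (9), Npm1 (8) and Nap1l1 (4), while Nap1l4 had none. Of the 11168 protein-coding genes with a promoter cluster in E14, 13.3% had an exonic cluster and 1.85% had at least 5, against 5 and 4 of the 6 genes. Only 10 of those coding genes had more exonic clusters than Nasp, and 21 had more per kilobase of exon than Npm1, which had 3.00 per kilobase. The 6 genes were chosen with earlier results of these data known, so their high counts are not independent of that choice. The authors found most spurious sites in highly expressed genes, and genes of like expression were not compared here. Of the 49 exonic clusters, 42 lay in coding sequence, 6 in 3′ UTRs and 1 in a noncoding exon. No such split of all exonic clusters is given here, so these counts do not mark a trait of the 6 genes.

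The division between promoter and exonic clusters depended on the annotation, because several of these genes have short noncoding transcripts annotated inside them. Of the 39 promoter clusters, 18 lay in coding exons after the first exon, near the annotated 5′ ends of retained-intron transcripts, processed transcripts, snoRNAs or a miRNA. Whether RNA is initiated at these annotated ends was not tested. With the starts of each gene's own transcripts only, 35 clusters were promoter clusters and 53 were exonic. When only protein-coding transcripts were used, 19 clusters remained promoter clusters and 66 were exonic. Counted without regard to annotated internal starts, 60 of the 94 clusters had their dominant TSS in a coding exon after the first.

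**Figure D1:**
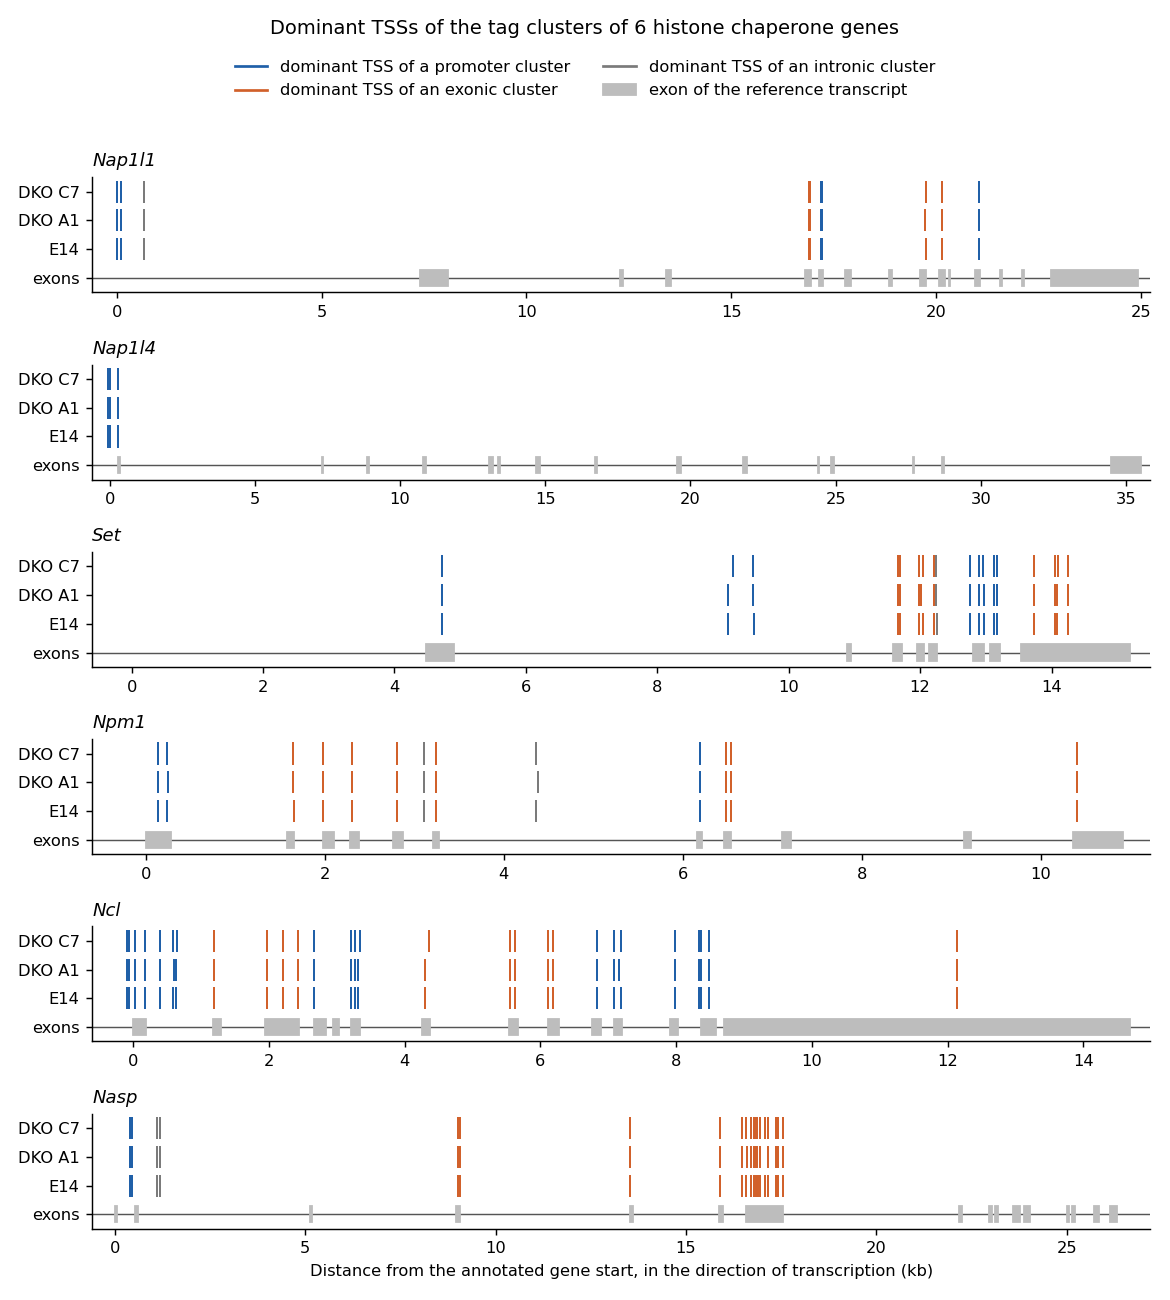
Dominant TSSs of all tag clusters of the 6 genes, plotted by distance from the annotated gene start in kilobases, with 1 row of ticks for each line and the exons of 1 coding transcript per gene as grey boxes. Tick colours give the category in E14 and the rows of the 3 lines look alike, with 3 clusters near the start of Nap1l4 and 13 exonic clusters in the long exon 7 of Nasp.

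**Figure D2:**
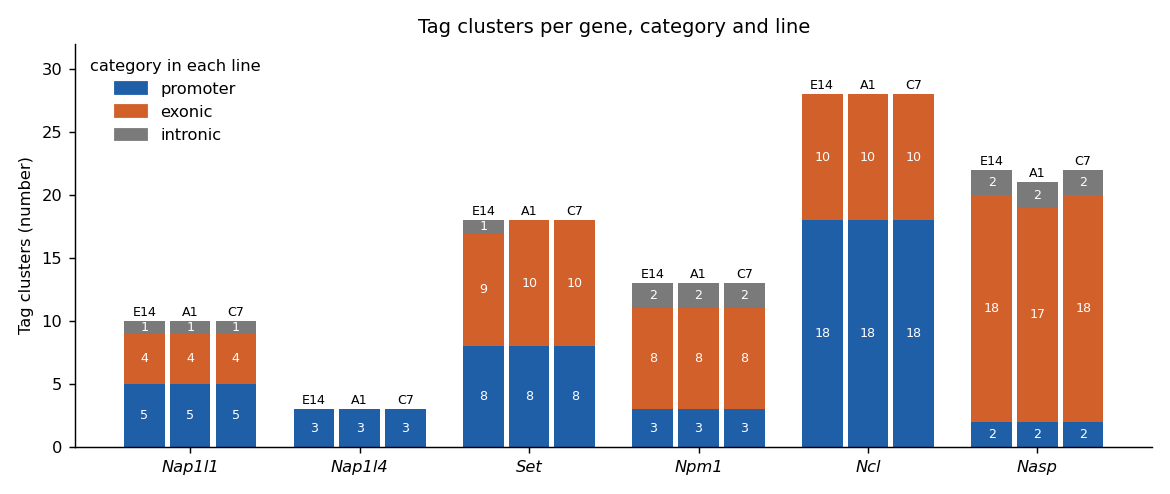
Number of tag clusters per gene in E14, DKO A1 and DKO C7, stacked by category as assigned in each line. The bars of a gene differ in height only at Nasp, with 22, 21 and 22 clusters, and 1 Set cluster is intronic in E14 and exonic in both clones.

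Nap1l1 (ENSMUSG00000058799.16) occupies positions 111473223 to 111498150 of chromosome 10 in mm10, is transcribed from the plus strand and had 10 clusters in each line. The bases around the dominant TSS of its 5′ clusters 1 and 2 and of the coding clusters 4 and 9 are shown, since they show the contrast between the promoter and the gene body. Clusters are numbered from the 5′ end of each gene. Capitals mark the base before the dominant TSS (position -1) and the dominant TSS itself (+1) in E14.
Nap1l1 cluster 1, chr10:111473212-111473241, plus strand: ggcgggctctcgggTCttttttagcgccat
Nap1l1 cluster 2, chr10:111473306-111473335, plus strand: tgcgcagctcccgcCGcccggctccgcgtc
Nap1l1 cluster 4, chr10:111490119-111490148, plus strand: catgatctcgagagGAagtatgctgttctc
Nap1l1 cluster 9, chr10:111493360-111493389, plus strand: acacaaggggcgtgGGacagttcgtactgt

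The promoter cluster 1 of Nap1l1 (111473135 to 111473272) used base 111473227 as its dominant TSS in each line, which is the annotated start of a coding transcript. This TSS is a C followed by a run of T, the arrangement of a 5′ terminal oligopyrimidine start (C and then at least 4 pyrimidines), which is known from ribosomal protein mRNAs and was found at 3.92% of all promoter clusters of E14 with known bases. Among the 39 promoter clusters of the 6 genes, 35 had known bases and 18 lay in coding exons after the first. The Nap1l1 TSS was the only oligopyrimidine start among the 35. The interquantile region, which holds the signal between quantiles 0.1 and 0.9, was 10 bp wide in E14 and 34 bp wide in A1 and in C7. Its upstream edge was at 111473225 in every line, and its downstream edge was at 111473234 in E14 and at 111473258 in both clones. An interquantile region at least 3 times as wide in both clones as in E14 was found for 0.609% of all promoter clusters present in the 3 lines. At the limit of 1.5 times used elsewhere the share was 2.64%, against 1 of the 39 promoter clusters of the 6 genes, which is near that share. Because E14 was the reference for both clones, 1 unusual width in E14 would give the same difference in both comparisons. Cluster 2, downstream in the same first exon, kept its dominant TSS at 111473321 and was 29, 34 and 29 bp wide in E14, A1 and C7.

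Inside Nap1l1, 7 clusters lay in coding exons 4, 5, 8, 9 and 11 of the 14-exon transcript Nap1l1-203. Those in exon 4, at codons 105 and 112, were 23 and 5 bp wide in each line. Those in exons 8 and 9, at codons 254 and 283, were 17 bp wide in each line and 6, 6 and 7 bp wide, respectively. The other 3, at codons 127, 140 and 346, lay within 500 bp of the starts of retained-intron transcripts and therefore counted as promoter clusters. With a window of 1000 bp no exonic cluster was left at Nap1l1, and with 100 bp there were 7. The dominant TSS moved only in A1, by -20 bp in cluster 4 and by -7 bp in cluster 8, where a negative distance is upstream. All 10 clusters were thus present in E14 as in the clones, and the number of clusters in the gene body did not differ between the lines. The authors show an intragenic site of Nap1l1 as a representative spurious TSS sensitive to loss of PWWP2A/B. That sensitivity is a rise in signal, which could not be compared from positions, so the equal counts do not bear on it.

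Nap1l4 lies on the minus strand of chromosome 7 from 143513579 to 143549106 (ENSMUSG00000059119.9) and had 3 clusters, all at the 5′ end. The bases at clusters 2 and 3 are shown for comparison with Nap1l1, as far upstream as they were known.
Nap1l4 cluster 2, chr7:143549086-143549106, minus strand: gcgacCAcggcggtgcagccc
Nap1l4 cluster 3, chr7:143548804-143548828, minus strand: agcgcgcttTGttcccgccgcccga
Both dominant TSSs were purines preceded by a pyrimidine, the usual initiator dinucleotide of mammalian promoters, and neither moved in the clones. Cluster 2 was 48 bp wide in E14 and A1 and 53 bp in C7. Cluster 3, at the start of Nap1l4-209, was 24 bp wide in E14 and C7 and 11 bp in A1. Cluster 1, a short distance upstream, was 3 bp wide in each line, and its dominant TSS lay 2 bp further downstream in C7. Over its gene length of 35528 bp, the longest of the 6 genes, no cluster was found downstream of the first exons in any line.

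Set lies on the plus strand of chromosome 2 from 30057378 to 30072577 (ENSMUSG00000054766.13) and had 18 clusters in each line. It has alternative first exons, and the bases at both 5′ clusters are shown together with the base used in C7 and 1 cluster each from coding exon 7 and the 3′ UTR.
Set cluster 1, chr2:30062084-30062113, plus strand: acctgaggccgcctCAgttcctgtgagttt
Set cluster 2 in E14 and A1, chr2:30066441-30066470, plus strand: tgcggcctgcccctCGccgggaagaggagg
Set cluster 2 in C7, chr2:30066508-30066537, plus strand: ggctcagggcaatcCAgaagcgagccggag
Set cluster 13, chr2:30070494-30070523, plus strand: cgaagaggaggaggGGctggaagatattga
Set cluster 16, chr2:30071422-30071451, plus strand: gaaaaaaaggggggGTatagacggtgagca
The upstream cluster spanned 114 bp but its interquantile region was 1 bp wide in all 3 lines, so at least 80% of its signal came from the single base 30062099. The downstream cluster spanned 93 bp with an interquantile width of 74 bp in each line. Its dominant TSS was at 30066456, the annotated start of a coding transcript, in E14 and A1 and 67 bp further downstream, at 30066523, in C7. In C7 the interquantile region ran from 30066449 to 30066522, so the dominant TSS lay just outside it. Both dominant TSSs are pyrimidine-purine steps within 1 broad promoter.

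In the body of Set, exons 3 to 8 of Set-202 each held clusters. Exonic clusters numbered 9 in E14 and 10 in both clones, and intronic clusters 1 and 0. This change came from a single cluster, from 30069609 to 30069633 at the end of exon 5, which was present in all lines. Its dominant TSS was at 30069633, past the exon end, in E14 and -14 bp away at 30069619, inside the exon, in A1 and in C7. More exonic clusters than in E14 were counted at 0.716% of coding genes in A1 and at 0.725% in C7. Set is therefore in that group through the position of 1 dominant TSS and not through a cluster absent from E14. When clusters were placed by their midpoint, Set had 10 exonic clusters in E14 as well. Cluster 3, in the coding part of the first exon downstream of that start, also had its dominant TSS at the same base in both clones, -20 bp from that of E14.

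Npm1 lies on the minus strand of chromosome 11 from 33152287 to 33163206 (ENSMUSG00000057113.13) and had 13 clusters in each line. The promoter cluster and 3 clusters from coding exons 5 and 6 and the 3′ UTR are shown, to compare the pyrimidine-rich promoter with sites in the gene body.
Npm1 cluster 1, chr11:33163061-33163090, minus strand: agcccgcgtcctttCCttggcgtgattccg
Npm1 cluster 6, chr11:33160384-33160413, minus strand: atgaagatgaggagGAcgtaaaactcttag
Npm1 cluster 8, chr11:33159949-33159978, minus strand: tgaagatgatgaggACgatgatgaggacga
Npm1 cluster 13, chr11:33152791-33152820, minus strand: tctttaagaaaaggGTttaaacagtttgaa
The promoter cluster spanned 106 bp, but its interquantile region was 5 bp wide and its dominant TSS at 33163075 in every line. That TSS was a C inside an unbroken run of 10 pyrimidines, against a run of 8 at the Nap1l1 promoter. It did not count as an oligopyrimidine start by the rule used, because a G follows after 2 further pyrimidines.

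Clusters were found in 9 of the 11 exons of Npm1-201, among them each of exons 1 to 8. The 8 exonic clusters were wide, with a median interquantile width of 45.5 bp in E14. The widest, in exon 3, measured 63, 53 and 47 bp in E14, A1 and C7, and that of exon 4 measured 59, 60 and 52 bp. The dominant TSS of the exon 3 cluster was the first base of that exon in each line. In E14 the first base of an exon was the dominant TSS at 2 of the 49 exonic clusters of the 6 genes and at 0.399% of all exonic clusters. The cluster of exon 6, in the sequence shown, measured 37, 39 and 40 bp. Only cluster 3, in exon 2, had its dominant TSS at another base in both clones, by -16 bp in each. Npm1 codes for an acidic protein, and codons beginning with GA, which encode aspartate or glutamate, made up 35.6% of the codons within 5 codons of a dominant TSS and 17.1% of the other codons of the gene. The same comparison gave 27.5% and 22.9% at Nasp, 27.4% and 26.4% at Nap1l1, 30.3% and 29.5% at Set and, in the other direction, 19.9% and 25.8% at Ncl. Over these 5 genes the shares were 26.5% and 24.3%.

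Ncl lies on the minus strand of chromosome 1 from 86344719 to 86359400 (ENSMUSG00000026234.12) and had 28 clusters in each line, the most of the 6 genes. Its introns host snoRNAs, including Snord82 and Snora75. The main promoter cluster and 2 coding clusters, the first in exon 3 and the second in exon 13, are shown.
Ncl cluster 3, chr1:86359350-86359379, minus strand: tcagtcttttgcctCAgacgctagctgtag
Ncl cluster 10, chr1:86357173-86357202, minus strand: ctccagctaaggggGCtaagaacggtaaga
Ncl cluster 27, chr1:86350907-86350936, minus strand: ggccaaacctaaggGTgaaggtggctttgg
The promoter cluster had a CA initiator at 86359364 and an interquantile width of 14 bp in all 3 lines. A pair of small clusters lay upstream of it. The first of these, from 86359483 to 86359486, was 4 bp wide in E14 and 2 bp wide in both clones, and the second was 5 bp wide in each line.

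Of the 14 exons of Ncl-201, 13 held a cluster in E14. Ncl had 20 clusters in coding sequence, of which 9 counted as exonic and 11 as promoter clusters near starts of internal noncoding transcripts or of the gene's own first exon. The exonic count of 10 became 22 when promoters were defined by a 100 bp window and 5 with one of 1000 bp. These clusters were among the widest of the group, and the exonic clusters had a median interquantile width of 53.5 bp in E14. In exon 3, which codes for acidic stretches, cluster 10 measured 97, 101 and 100 bp in E14, A1 and C7. In exon 4 cluster 12, near the start of Snord82, measured 136, 142 and 142 bp. Cluster 17, in exon 8, was 2 bp wide in E14, 10 bp in A1 and 9 bp in C7. In the opposite direction, cluster 25, in a retained intron just upstream of exon 13, was 8 bp wide in E14 and 3 bp in both clones. The dominant TSS of cluster 16, in exon 7, was 61 bp downstream of the E14 position in C7 and unmoved in A1.

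Nasp lies on the minus strand of chromosome 4 from 116601052 to 116627941 (ENSMUSG00000028693.15) and had 21 clusters in A1 against 22 in the other lines. The main promoter and 2 clusters of exon 7 are shown, cluster 16 being one of those that were wider in both clones.
Nasp cluster 2, chr4:116627479-116627497, minus strand: ctcCAatctgccattttct
Nasp cluster 11, chr4:116611233-116611262, minus strand: tgaagtggagaaggGTggaagagaagacat
Nasp cluster 16, chr4:116610994-116611023, minus strand: aaacagtggaggagGGagaggaaataataa
The promoter cluster was 5 bp wide with its dominant TSS at 116627493 in all lines. Of the 18 exonic clusters, 13 lay in exon 7 of Nasp-201, a coding exon of 975 bp, between codons 141 and 460. The remaining ones lay in exons 4, 5 and 6 and in a noncoding exon of Nasp-207. No cluster was found in the 9 exons after exon 7 in any line, so the coding clusters of Nasp ended at that exon, as the map of the gene shows.

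One of the exon 7 clusters of Nasp was 14 bp wide in E14 and in C7 and overlapped no cluster of A1. It was the only cluster of the 6 genes that was not found in every line, and no cluster of a clone lacked a counterpart in E14. Over the whole data, 0.709% of E14 clusters overlapped none of A1 and 0.749% none of C7, while 1.11% of A1 clusters and 0.776% of C7 clusters overlapped none of E14. At these genes clusters were therefore present alike in the wild type and the clones, apart from 1 exonic site of Nasp in A1. Cluster bounds are the same in the lines, which left presence little room to differ. Presence also says nothing of the signal at a cluster, which was not part of the deposited positions.

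**Figure D3:**
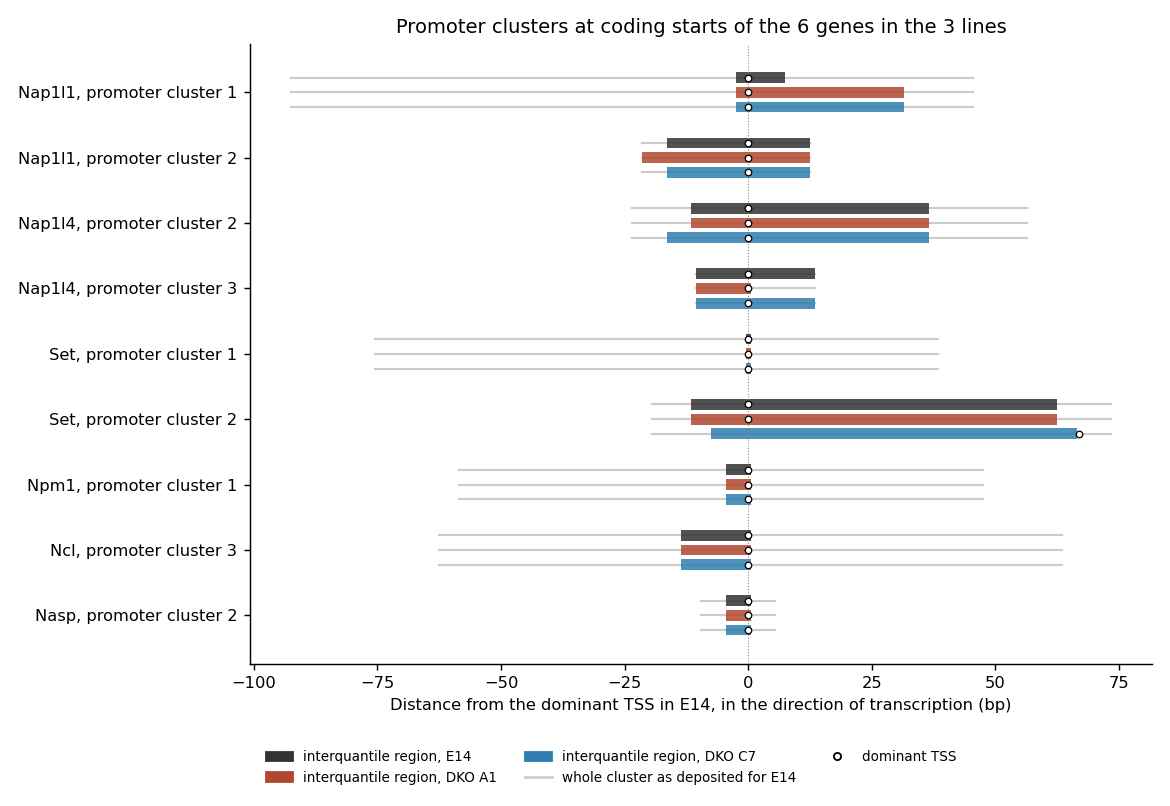
Interquantile regions (coloured bars), whole clusters (grey lines) and dominant TSSs (open circles) of 9 promoter clusters at coding starts in E14, DKO A1 and DKO C7, plotted in bp from the dominant TSS of E14. The Nap1l1 cluster 1 runs from 10 bp in E14 to 34 bp in both clones on its downstream side, and the dominant TSS of Set cluster 2 lies 67 bp downstream in C7.

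The lines were next compared in the position of the dominant TSS over the 93 clusters found in all 3. It was at another base than in E14 for 23 clusters in A1 and for 23 in C7, against 23.8% and 21.1% of all clusters of the series. In both clones it had moved for 11 clusters (11.2% of all clusters), and for 9 of these to the same base (8.48%). These shares lie near those of the whole series. Apart from Set clusters 3 and 9 and Npm1 cluster 3, the moves to the same base were at Set cluster 15, Ncl clusters 11 and 14 and Nasp clusters 6, 15 and 20, and only at Nasp cluster 15 (-18 bp) did they exceed 5 bp. No dominant TSS moved in both clones at Nap1l1 or Nap1l4. When moves of up to 5 bp were disregarded, 15 clusters had moved in A1, 10 in C7 and 5 in both.

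The interquantile width was the same in the 3 lines at 52 of the 93 clusters (59.4% of all clusters). It was larger in both clones than in E14 at 8 clusters (12.5%) and smaller in both at 8 (4.01%). Split by category, the width was the same in all lines at 26 of 39 promoter clusters of the 6 genes (49.8% of all promoter clusters) and at 23 of 48 exonic clusters (76.2% of all exonic clusters). Promoter clusters were wider in both clones at 2 of 39 (16.0%) and narrower in both at 2 (5.10%), and exonic clusters were wider in both at 6 of 48 (6.22%) and narrower in both at 6 (2.11%). Exonic clusters of these genes were also wider in E14 than the category by their median, and the part of that width in these counts was not tested. A width at least 1.5 times that of E14 in both clones was found at 4 clusters (3.08%). These were the promoter of Nap1l1, Ncl cluster 17 and, in Nasp, cluster 5 (1, 2 and 2 bp) and cluster 16 (2, 7 and 7 bp). The reverse, a width at least 1.5 times smaller in both clones, was found at Ncl clusters 1 and 25 (0.706% of all clusters). Except for the Nap1l1 promoter, all of these clusters were at most 10 bp wide in every line. The median width over the 93 clusters was 18 bp in E14, A1 and C7 alike. How far widths or dominant TSSs vary between libraries of 1 line could not be measured from the merged sets.

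**Figure D4:**
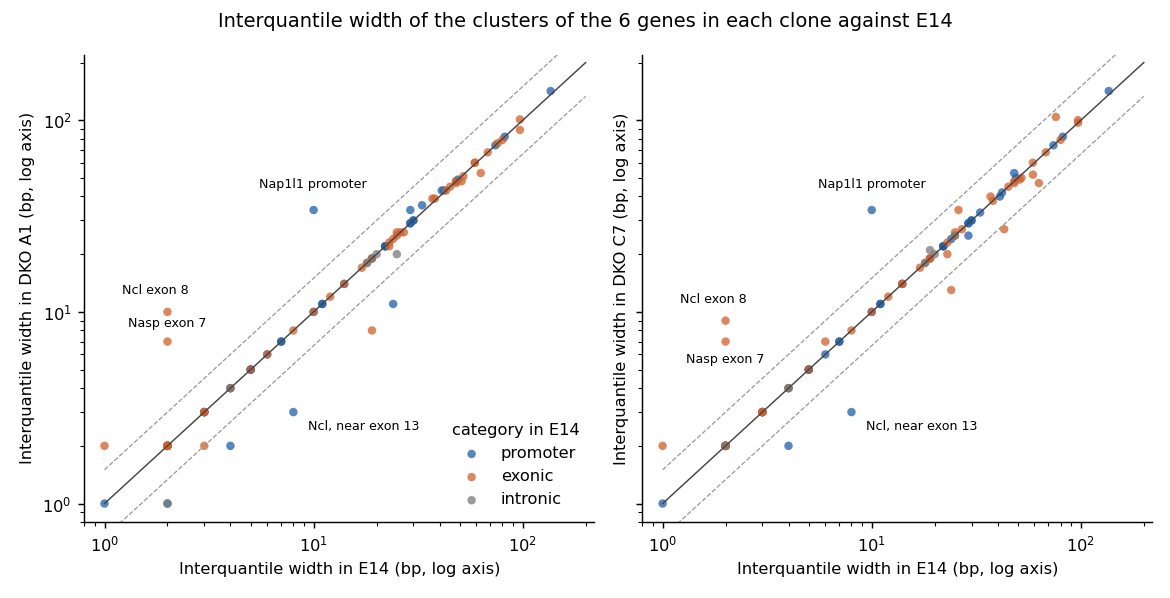
Interquantile width of the 93 clusters of the 6 genes found in all lines, in DKO A1 (left) and DKO C7 (right) against E14, both axes in bp on a log scale, coloured by category in E14. Most points lie on the line of equal width, the dashed lines mark 1.5-fold differences, and the Nap1l1 promoter stands above them at 10 against 34 bp in both panels.

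By their median, exonic clusters of the 6 genes were wider than the category as a whole. Their median interquantile width in E14 was 19 bp, against 3 bp over all 4260 exonic clusters and 20 bp over all promoter clusters. A width of at least 20 bp was found for 23 of the 49, compared with 17.5% of all exonic clusters. The genes differed among themselves, with medians of 53.5 bp at Ncl, 45.5 bp at Npm1, 18 bp at Set, 11.5 bp at Nap1l1 and 11 bp at Nasp. A wider interquantile region means that capped 5′ ends were spread over more bases. Signal per cluster was not part of the deposited positions, and its part in the width was not tested.

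The bases at the dominant TSS differed between promoters and gene bodies. Over all promoter clusters of E14 with known bases, 74.4% had a pyrimidine at -1 and a purine at +1, while 10.5% of all exonic clusters did. At the exonic clusters of the 6 genes this step was found at 6 of 49. Instead, guanine preceded most exonic TSSs. At position -2 guanine was found at 85.1% of the exonic clusters of the 6 genes and at position -1 at 68.1%, compared with 81.4% and 72.1% of all exonic clusters and with 38.6% and 14.2% of all promoter clusters. GG at both positions preceded the TSS at 29 of the 47 exonic clusters with known bases, against 63.5% of all exonic and 10.9% of all promoter clusters. It was found at 3 of 4 such clusters of Nap1l1, 13 of 18 of Nasp, 5 of 9 of Set, 5 of 9 of Ncl and 3 of 7 of Npm1, and at Nasp all 18 had guanine at -2. The 18 clusters in later coding exons that counted as promoter clusters had GG at 9 of 17 sites with known bases, so in this respect they resembled exonic clusters more than promoters. The exonic clusters of the 6 genes were in their bases like those of the whole series. How an untemplated guanine at read starts was treated is not known here, and its part in the guanine before exonic TSSs was not tested.

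**Figure D5:**
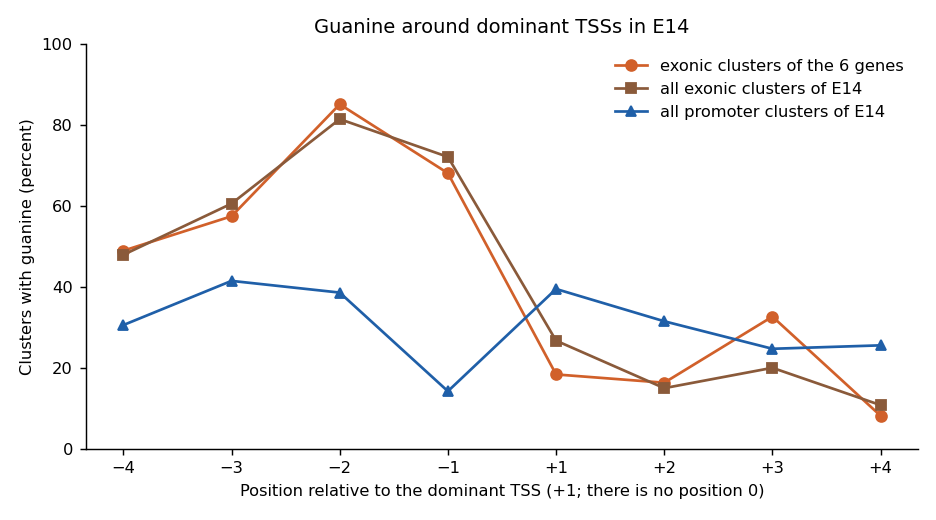
Percentage of clusters with guanine at each position from -4 to +4 around the dominant TSS, for the exonic clusters of the 6 genes, all exonic clusters and all promoter clusters of E14. Both exonic groups reach over 80% at position -2 and fall below 30% at +1, and promoter clusters are lowest at -1 with 14.2%.

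Unique alignment can limit what is seen at genes that have copies elsewhere in the genome. With the 77 nt left of a read after the barcode, 40.4% of all stretches of that length in Set-202 occurred unchanged in annotated transcripts of other genes, as did 30.1% of those of Npm1-201 and 23.6% of those of Nap1l1-203. No such stretch was found for Nap1l4, Ncl or Nasp. Reads from stretches repeated at another place would not have aligned uniquely, and the counts at Set, Npm1 and Nap1l1 are uncertain in that respect. Whether the other genes lie at another place or overlap these genes was not checked. Copies outside annotated transcripts were not analysed here.

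The 6 genes were then placed in a list of 42 genes for histone chaperones, their partners and nucleolar proteins, which includes them. In each line 38 of the 42 had a promoter cluster and 22 an exonic cluster. The promoter clusters of the list numbered 152, 152 and 154 in E14, A1 and C7, the exonic ones 120, 122 and 125, and the intronic ones 13, 12 and 12. Nap1l2, Nap1l3 and Nap1l5, the tissue-restricted relatives of Nap1l1, and Npm2, the egg form of nucleophosmin, had no cluster in any line. Most exonic clusters in E14 were found at Nasp, followed by Atrx (15), a chromatin remodeller that deposits H3.3 with Daxx, and then Ncl, Set and Npm1. The exonic count was higher in both clones than in E14 at Set, at Supt16 (6, 7 and 7), a subunit of the FACT chaperone, and at Tcof1 (4, 5 and 5), a nucleolar factor of ribosomal RNA transcription. At Set this came from the moved dominant TSS of 1 cluster, and its source at Supt16 and Tcof1 was not examined. Over all coding genes with a promoter cluster in E14, the exonic count was higher in both clones at 0.376% and lower in both at 0.0806%. Only 1486 of those 11168 genes had an exonic cluster in E14, against 22 of the 42, so these shares have unlike bases. The exonic count was lower in both clones at none of the 42 genes, and only the intronic count of Set was.

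By its 9 counts, for 3 categories in 3 lines, Nap1l1 was most like Cpsf6, which codes for a factor of pre-mRNA 3′ end cleavage and had the same count in every category and line. Hnrnpc, with 1 more intronic cluster in each line, and Zmat3, with 1 exonic cluster fewer in each line, followed with a summed difference of 3. That difference was shared by 9 coding genes, so the order after Cpsf6 rests on the closeness of gene lengths.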

How the data were processed

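Positions were analysed for 3 merged lines, namely E14 (3 libraries), DKO A1 (2) and DKO C7 (3). Nuclear RNA had been converted to CAGE libraries without PCR. The authors aligned reads to mm10 with STAR (2.4.2a), kept unique alignments, normalised counts by a power law, merged replicates and called clusters with CAGEr. The labels also name SAMtools 1.3 and bedtools 2.17.0. The deposited file holds positions only, with every score at 0, and no p-value or depth could be had from it. How an untemplated guanine at read starts was treated is not given in the sources used here.

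Clusters were read with Python 3.11.15 and assigned with GENCODE M21 on GRCm38 (promoter window 500 bp). Those of 2 lines were paired when they overlapped by at least 1 bp on 1 strand. Columns from the file were counted from 0 and converted, which was checked by the share of pyrimidine-purine steps at promoters, 74.4% at the position used and at most 18.3% at 1 or 2 bp from it. Bases were taken from GENCODE transcripts and RefSeq promoter windows (GRCm38.p6, found for Nap1l1, Set, Ncl and Nasp), which covered 88.6% of promoter and 99.6% of exonic clusters of E14. They covered 4.93% of intronic clusters, so no intronic bases are given. Codons and exons refer to the coding transcript with the best support and longest coding sequence. Category, pairing and width functions were tested on simulated clusters and recovered all of 400 categories and 1000 pairs. Figures were drawn with Matplotlib 3.10.9.

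The 6 genes, the list of 42 genes and the marker lists were chosen with earlier results of these data known. Genes named from the list are the 5 with the highest exonic count in E14 and any whose count was higher, or lower, in both clones. The genes without any cluster were named after their values were seen. Other sequence comparisons (guanine, acidic codons, pyrimidine runs) were also added after seeing the data. Alternatives were other promoter windows, transcript sets, strands, placement, minimum width and overlap rules.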

Additional observations from a re-analysis of the deposited data

How the results depend on the processing

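No paired analysis was possible because the libraries of each line were merged in the cluster file used here, and for the same reason no library could be left out in turn. Of 122 alternative values computed for the comparisons, 109 stayed within 1.5 times the value given and 13 did not. Some of the 109 could not have changed. The total of 94 clusters does not depend on the promoter window or transcript set, and counts of wider or narrower clusters do not depend on the window. The tally is therefore no measure of robustness. Promoter clusters of the 6 genes in E14 fell from 39 to 17 with a window of 100 bp, 19 with protein-coding transcripts and 17 with transcripts of support level 1. The exonic total of 49 ranged from 34 to 71 over the windows. Disregarding moves of up to 5 bp left 15, 10 and 5 moved dominant TSSs in A1, C7 and both clones. By the width of the whole cluster, the promoter median was 22 bp instead of 11 bp, and 0 clusters were wider and 0 narrower in both clones, since cluster bounds are the same in the lines. The share of coding genes with an exonic cluster was 20.3% with the 100 bp window and 8.42% with a minimum width of 3 bp, and that with at least 5 was 2.79% and 0.907%. Exonic counts of single genes left the 1.5-fold range in 10 of 60 cases, at Nap1l1, Set and Ncl.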

Other observations

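Clusters on the strand opposite to the genes were counted as well, within the same bounds. There were 11 at Ncl, 7 at Nasp, 5 at Npm1, 2 at Nap1l1, 2 at Set and none at Nap1l4, with the same numbers in E14, A1 and C7. Of the 27 clusters in E14, 1, at Ncl, had an annotated transcript start of its own strand within 500 bp, and the other 26 lay outside annotated transcripts of that strand. Nap1l4 thus had neither exonic nor opposite-strand clusters.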
